A study of Homo sapiens with 8 samples.

Results

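The histone genes measured in 2 human colon cancer lines numbered 53 of the 19775 genes on the arrays. A gene entered when a probe set was annotated to it alone and its current symbol placed it in the H1, H2A, H2B, H3 or H4 family, and each gene was read through its probe set with the highest mean over the 8 arrays. Pseudogenes stayed out, as did H1-10-AS1, an antisense RNA that is no histone gene. Of the 53 genes, 43 were replication histones: 6 of H1, 8 of H2A, 14 of H2B, 7 of H3 and 8 of H4. The other 10 were variants: H1-7, H1-8, H1-10, H2AJ, H2AX, H2AZ1, H2AZ2, H3-3A, MACROH2A1 and MACROH2A2. Among the replication histones, 40 lie on chromosome 6, H2AC25 and H2BC21 on chromosome 1 and H2BC12L on chromosome 21.

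Total RNA had been hybridised to Affymetrix arrays, 2 per group. HT29 and SW480 are established lines from human colorectal adenocarcinomas. HT29 spheres, labelled as 1st spheres, had bFGF and EGF, each at 10 ng/ml, and N2 supplement in DMEM-F12. Parental HT29 cells had 10% fetal bovine serum in DMEM, so that sphere form and medium cannot be told apart. The SW480 groups were a stable line labelled as expressing Snail and a stable line with the vector, both in DMEM with 10% serum. The labels give neither the promoter that drives Snail nor whether a line is 1 clone. Nothing in them states that paired arrays are independent cultures, and a p-value here reflects array-to-array spread alone, possibly of technical origin. SNAI1, which encodes Snail, was 6.32 and 6.38 log2 in the arrays labelled Snail, against 6.36 and 6.34 in vector arrays, a change of 0.00 ± 0.15 (SE, limma adjusted p = 0.992). Whether its 1 probe set lies in the introduced sequence is not known here, so the label was not borne out by this gene, and every direction below is that of the arrays labelled Snail. In HT29 spheres SNAI1 stood at 6.93 and 7.21, against 5.87 and 6.15 in parental cells, a rise of 1.07 ± 0.15 (adjusted p = 0.000318).

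Histones package DNA into nucleosomes. Replication histones are made in S phase from clustered genes, and their mRNAs mostly end in a stem-loop bound by SLBP in place of a poly(A) tail. NPAT and CASP8AP2 act at the gene clusters, and a complex with LSM10, LSM11, ZNF473, SYMPK and CPSF3 cuts the transcript behind the stem-loop. Some clustered genes, H2BC21 and H2BC12 among them, are also known to yield polyadenylated mRNA, mainly in cells that have left the cycle. Most variants, though not each to the same degree, are made through the cell cycle from scattered genes, mostly with polyadenylated mRNA. H2AX marks DNA breaks once phosphorylated, and H2AZ1 and H2AZ2 encode H2A.Z at promoters. The macroH2A proteins are enriched in silent chromatin, and H3-3A encodes the H3 deposited outside S phase. How reverse transcription was primed is not given in the sources used here, so the share of RNA with and without a tail that reached the arrays is unknown. In bulk RNA, fewer cells that express a gene and less RNA per cell cannot be told apart.

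The 160 bases before the annotated start are printed here for 6 replication histones from 4 families with some of the clearest values, and for the variants H2AX and H2AZ1. Sequences are RefSeq's on GRCh38.p14, read 5′ to 3′ along the gene's strand. Capitals mark matches to the motifs searched, on either strand. The binding motif of the basal transcription machinery was searched as TATAAA, and the site of the NF-Y complex, present in many cell cycle promoters, as CCAAT. The core of the octamer element of H2A and H2B genes was searched as TTTGCAT, the box known from linker histone genes by its usual letters AAACACA, and the core of site II, known from H4 genes, by the shorter GGTCCG. Matches can overlap, and then their capitals run together, as they do in H2BC21.
H1-2, chr6:26056471-26056630, minus strand: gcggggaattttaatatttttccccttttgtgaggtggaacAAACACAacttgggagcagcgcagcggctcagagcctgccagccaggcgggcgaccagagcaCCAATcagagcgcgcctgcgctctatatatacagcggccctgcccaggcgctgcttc
H2AC6, chr6:26124012-26124171, plus strand: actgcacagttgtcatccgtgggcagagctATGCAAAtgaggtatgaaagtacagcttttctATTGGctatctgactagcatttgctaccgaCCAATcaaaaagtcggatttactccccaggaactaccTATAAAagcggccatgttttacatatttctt
H2AC8, chr6:26216761-26216920, plus strand: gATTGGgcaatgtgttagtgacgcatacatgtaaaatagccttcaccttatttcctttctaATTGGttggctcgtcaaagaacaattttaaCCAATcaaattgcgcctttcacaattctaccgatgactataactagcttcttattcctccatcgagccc
H2BC12, chr6:27146859-27147018, minus strand: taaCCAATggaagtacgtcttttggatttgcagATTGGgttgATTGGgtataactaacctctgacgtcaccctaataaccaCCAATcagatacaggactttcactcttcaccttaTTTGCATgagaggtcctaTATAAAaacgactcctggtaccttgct
H2BC21, chr1:149886683-149886842, minus strand: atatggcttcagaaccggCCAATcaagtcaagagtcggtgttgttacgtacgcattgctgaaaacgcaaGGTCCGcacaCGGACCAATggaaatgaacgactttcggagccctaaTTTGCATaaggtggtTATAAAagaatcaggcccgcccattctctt
H4C8, chr6:26285535-26285694, minus strand: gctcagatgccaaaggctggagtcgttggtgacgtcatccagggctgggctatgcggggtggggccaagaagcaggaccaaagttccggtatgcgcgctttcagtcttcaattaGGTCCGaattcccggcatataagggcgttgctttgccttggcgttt
H2AX, chr11:119095466-119095625, minus strand: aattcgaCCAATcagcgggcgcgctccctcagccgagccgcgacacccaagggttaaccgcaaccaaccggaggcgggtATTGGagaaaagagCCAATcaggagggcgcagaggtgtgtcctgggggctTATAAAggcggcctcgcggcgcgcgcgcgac
H2AZ1, chr4:99950276-99950435, minus strand: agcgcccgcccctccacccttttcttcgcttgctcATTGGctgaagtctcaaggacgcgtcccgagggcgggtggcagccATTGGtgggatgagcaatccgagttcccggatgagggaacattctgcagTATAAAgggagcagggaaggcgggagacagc

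Promoters were found for 50 of the 53 genes, 40 of them replication histones, and the 250 bases before the start were searched beside the same window of 27305 promoters. The octamer core, bound by the POU2F1 protein, was in 6 of 8 H2A promoters (75.0%) and 10 of 13 H2B promoters (76.9%), in 0 of 10 variants and in 3.98% of all promoters. None of the H1, H3 and H4 windows held these letters. All 6 replication H1 promoters held the H1 box, against 1 of 10 variants (H1-7) and 4.95% of all promoters. Of 7 H4 promoters, 6 (85.7%) held the H4 site II core, which HINFP recognises, against 9.33% of all promoters. That core was in 20.0% of replication promoters and also in 20.0% of variants, H1-10 and MACROH2A2. A CCAAT box, the NF-Y site, was in 35 of 40 replication promoters (87.5%), 7 of 10 variants (70.0%) and 33.0% of all promoters, but in only 2 of 7 H4 windows. TATAAA was in 67.5% of replication promoters, 30.0% of variants and 11.1% of all promoters, and a strict E2F motif, TTTGGCG, in 2.5%, 0.0% and 1.6%. A match is a description of letters only.

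In HT29 spheres, 12 of 43 replication histones rose and 1 fell, while 0 of 10 variants rose and 4 fell. Over all genes tested, 31.4% were called in this comparison, 12.4% as higher and 19.0% as lower. The rises were largest for H2AC8, H2BC21 and H1-2, and 6 of the 12 were at least 2-fold. Replication histones had a median change of 0.20 log2 and variants of -0.18, against 0.04 over all genes. H2B supplied 7 of the 12 rises, H2A 2, H4 2 and H1 1. No H3 gene read alone passed the test upward (1 at an unadjusted p under 0.05), though 2 probe sets that name several genes, H3 among them, did, and at that unadjusted p limma also gave 0 variant rises. The other 30 replication histones, which did not pass, lay between -0.28 and 0.88. The spread of the parental pair enters each of these values and is described with them.

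**Figure D1:**
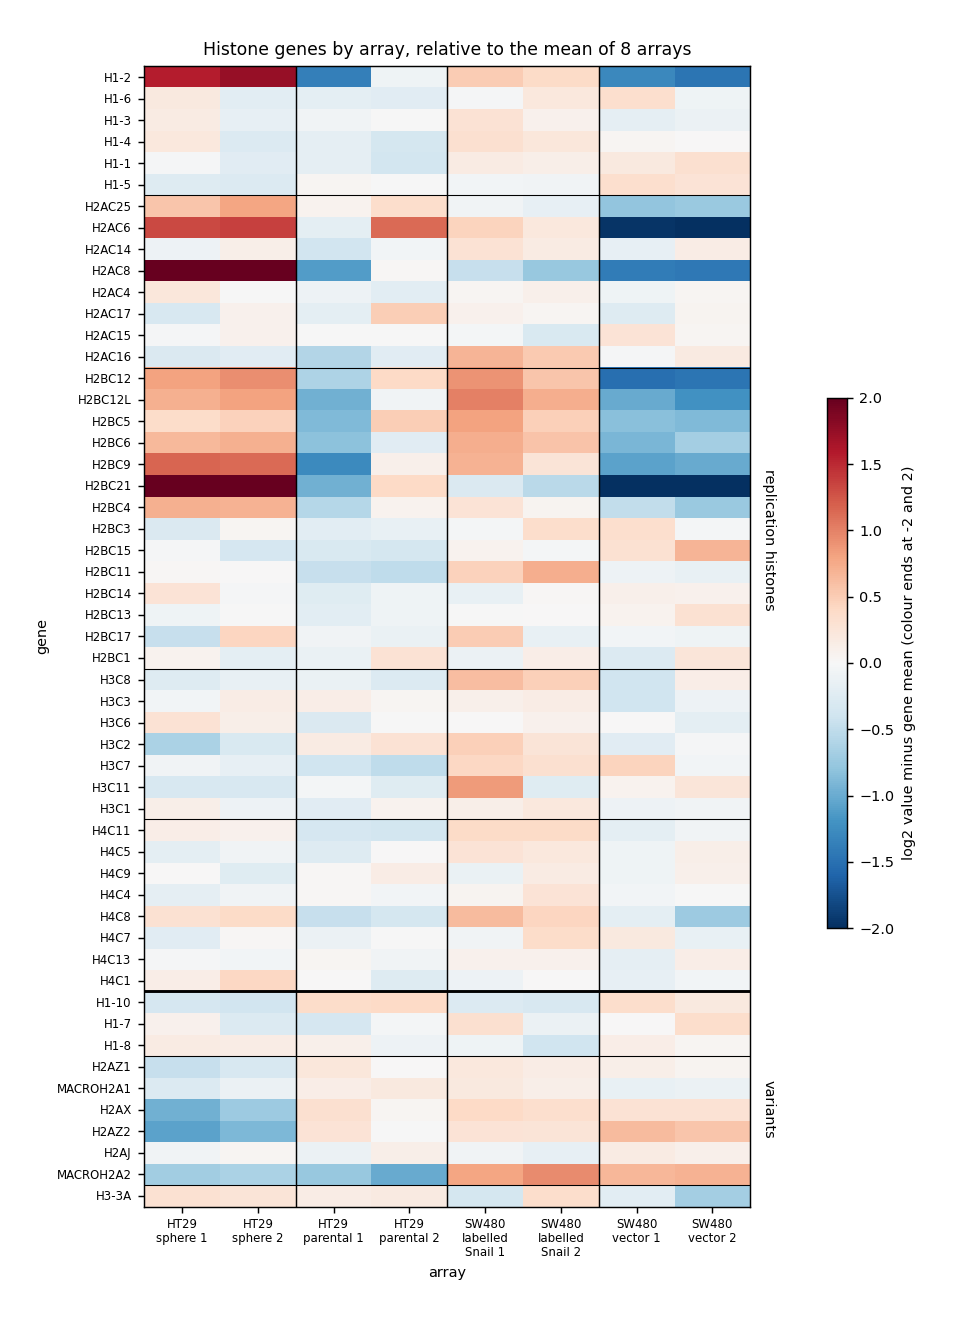
Each row is a histone gene and each column an array; colour gives the log2 value minus that gene's mean over the 8 arrays, in log2 units. The strongest colours belong to H1-2, H2AC8, H2AC6 and a block of H2B genes: sphere columns are red, vector columns blue, and parental array 1 is bluer than parental array 2.

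Among the linker histones, which bind between nucleosomes, H1-2 carried the change. Its log2 value was 10.42 and 10.59 in spheres, against 7.48 and 8.76 in parental cells. Both sphere arrays lay above both parental arrays, a rise of 2.39 ± 0.31 (5.24-fold, limma adjusted p = 0.000235). The other 5 replication H1 genes did not pass, with changes from -0.28 (H1-5, adjusted p = 0.0992) to 0.23. H1-6, a testis form, was among them.

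Of the H2A genes, H2AC8 rose most: 8.60 and 8.98 in spheres, against 5.10 and 6.24 in parental cells, 3.12 ± 0.30 (8.69-fold, adjusted p = 3.23e-05). H2AC25, outside the chromosome 6 cluster, stood at 9.65 and 9.88 in spheres, against 9.16 and 9.44 in parental cells, a smaller rise of 0.47 ± 0.14 (adjusted p = 0.0289). H2AC6 was 9.47 and 9.53 in spheres, against 7.96 and 9.29 in parental cells. Its parental arrays were 1.32 apart, parental array 2 lay close to the spheres, and the change of 0.88 ± 0.33 did not pass (adjusted p = 0.0698).

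H2B genes made up the broadest group. H2BC21 was 10.13 and 10.01 in spheres, against 6.32 and 7.68 in parental cells, a rise of 3.07 ± 0.33 (8.42-fold, adjusted p = 6.84e-05). H2BC6 was 8.63 and 8.68, against 7.15 and 7.75, a rise of 1.20 ± 0.19 (adjusted p = 0.000694), and H2BC12L was 10.36 and 10.45, against 8.69 and 9.57, a rise of 1.27 ± 0.24 (adjusted p = 0.00229). In each of these genes the sphere arrays lay close together and above both parental arrays. H2BC9 was 9.08 and 9.06 in spheres, against 6.66 and 8.03 in parental cells (1.73 ± 0.34, adjusted p = 0.00306). H2BC12 was 11.28 and 11.40, against 9.85 and 10.87, a nearly 2-fold rise of 0.98 ± 0.27 (adjusted p = 0.0174). H2BC4 (0.95) and H2BC11 (0.50) rose less. The other 7 H2B genes, the testis form H2BC1 among them, did not pass. H2BC5 was the nearest in size at 0.60 ± 0.34 (adjusted p = 0.213), with 9.67 and 9.77 in spheres inside the span of 8.43 and 9.81 in parental cells.

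Of the H3 and H4 genes read alone, 2 rose and 1 fell. Probe sets shared by many H3 or H4 genes gave larger changes, upward in H3 (206110_at, 1.33) and downward in H4 (205967_at, -2.08). They are described with the other shared probe sets. H3C2 fell, with 4.44 and 4.77 in spheres, against 5.23 and 5.36 in parental cells (-0.69 ± 0.15, adjusted p = 0.00631). Of H4, H4C8 was 4.98 and 5.06 in spheres, against 4.22 and 4.33 in parental cells (0.74 ± 0.17, adjusted p = 0.00781), and H4C11 was 7.22 and 7.18, against 6.77 and 6.72 (0.46 ± 0.12, adjusted p = 0.0141). The other 6 H4 genes did not pass. H3C2 and H4C8 were dim on every array, below each array's median over all genes, so a small signal stands behind them.

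**Figure D2:**
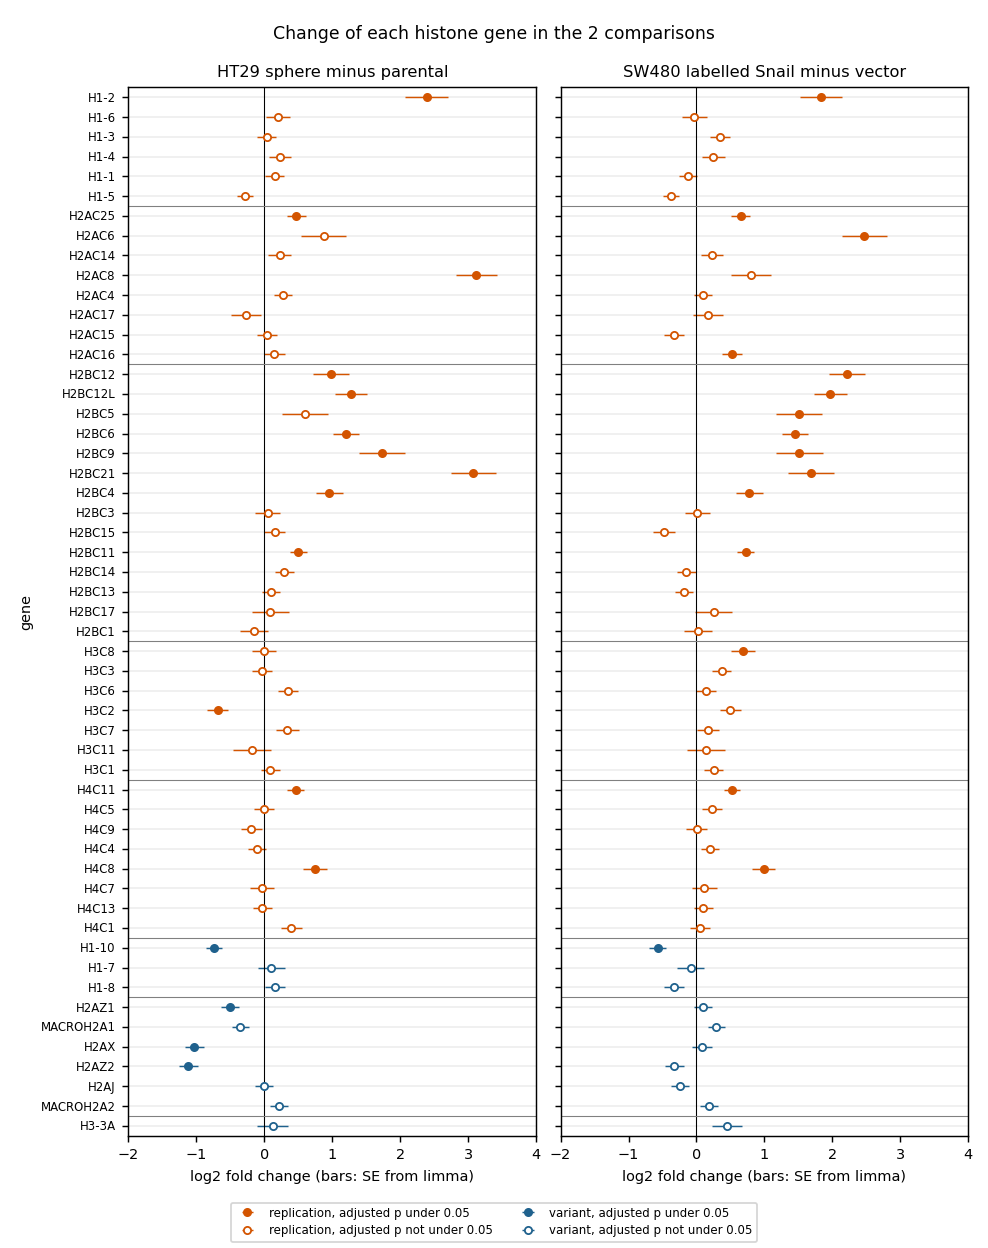
Log2 fold change of each of the 53 histone genes, with the SE from limma as bars, for HT29 sphere minus parental (left) and SW480 labelled Snail minus vector (right); filled points passed an adjusted p of 0.05. Filled orange points are nearly all right of 0, 12 and 15 of them, and the filled blue points, 4 and 1, are left of it.

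Among the 10 variants, 4 fell in spheres and 6 did not pass, 4 of these with a change above 0. H2AX was 10.34 and 10.58 in spheres, against 11.63 and 11.35 in parental cells, a fall of -1.03 ± 0.14 (2.04-fold, limma adjusted p = 0.000323). H2AZ2 was 9.92 and 10.09, against 11.26 and 10.98, a fall of -1.12 ± 0.14 (2.17-fold, adjusted p = 0.000152). The groups did not overlap in either gene. H1-10, a linker variant, was 9.52 and 9.47 in spheres, against 10.23 and 10.25 in parental cells (-0.74 ± 0.12, adjusted p = 0.000977). H2AZ1 was 12.38 and 12.51, against 13.06 and 12.85 (-0.50 ± 0.13, adjusted p = 0.0132). These 4 genes were bright in every array. MACROH2A1 was 11.66 and 11.82, against 12.07 and 12.13, and missed the threshold (-0.36 ± 0.12, adjusted p = 0.0507). MACROH2A2 (0.22), H3-3A (0.12), H2AJ (-0.01), and H1-7 (0.11) and H1-8 (0.16), known from male and female germ cells, did not pass either.

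Much of the spread in these results came from the parental arrays. limma pools the 4 groups into 1 spread per gene. Where the parental pair alone was wide, the SE understates its spread in HT29 and is widened in SW480. For H1-2 the SD was 0.91 in parental cells, 0.12 in spheres, 0.09 in the arrays labelled Snail and 0.13 in vector arrays. Its SE was 0.31 in both comparisons. Parental array 2 lay over 1 log2 unit above parental array 1 in 7 of 43 replication histones (H1-2, H2AC6, H2AC8, H2BC12, H2BC21, H2BC5 and H2BC9, by 1.02 to 1.38), in 0 of 10 variants and in 0.652% of all genes. No sphere or vector pair, and 1 pair labelled Snail (H3C11), differed by more than 2-fold in a replication histone. Without parental array 1 the value fell to 0.47 for H2BC12, 0.33 for H2AC25, 1.04 for H2BC9, 0.84 for H2BC12L and 0.63 for H2BC4. A fit with 1 parental array takes no spread from the parental pair, so passing in it is no added support. H2AC25 did not pass with each line fitted alone (limma adjusted p = 0.0745) or with array weights (adjusted p = 0.0515). Without parental array 2 the value for H2BC12 was 1.49. Without sphere array 2 only 7 rises passed: H2AC25 (0.35), H2BC11 (0.51), H2BC12 (0.92), H4C8 (0.70) and H4C11 (0.48) were lost, and without sphere array 1 H2BC11 (0.50), H2BC12 (1.04), H4C11 (0.44) and the falls of H3C2 (-0.52) and H2AZ1 (-0.44). H2AZ1 was also lost without parental array 1 (-0.40).

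In the SW480 arrays labelled Snail, 15 of 43 replication histones rose and 0 fell against vector arrays, and 0 of 10 variants rose and 1 fell. Over all genes tested, 16.2% were called, 8.91% as higher and 7.34% as lower. At an unadjusted p under 0.05, limma gave 3 falls among replication histones and 1 rise among variants. The median change was 0.25 log2 for replication histones, 0.00 for variants and 0.01 over all genes, and 8 of the 15 rises were at least 2-fold. H2B again supplied most of them, 8 of 14 genes, with 3 of H2A, 2 of H4, 1 of H1 and 1 of H3. The 28 others lay between -0.47 and 0.80.

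H2AC6 changed most: 8.61 and 8.37 in the arrays labelled Snail, against 6.20 and 5.84 in vector arrays, a rise of 2.47 ± 0.33 (5.54-fold, limma adjusted p = 0.000969). H2BC12 was 11.38 and 11.03, against 8.97 and 9.01 (2.21 ± 0.27, 4.64-fold, adjusted p = 0.000581), and H2BC12L was 10.65 and 10.37, against 8.64 and 8.44 (1.97 ± 0.24, adjusted p = 0.000601). The pairs were tight in all 3 genes, and the groups lay far apart. H1-2 was 9.36 and 9.24, against 7.56 and 7.38 (1.83 ± 0.31, 3.56-fold, adjusted p = 0.00354), and the other 5 replication H1 genes did not pass. H2BC6 was 8.69 and 8.55, against 7.06 and 7.29 (1.45 ± 0.19, adjusted p = 0.000811). H2BC21 rose too, with 6.98 and 6.73 against 5.07 and 5.27 (1.69 ± 0.33, adjusted p = 0.0073), as did H2BC9 (1.52 ± 0.34), H2BC5 (1.50 ± 0.34), H2BC4 (0.78 ± 0.20) and H2BC11 (0.72 ± 0.13).

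Smaller rises came from H2AC25, with 9.02 and 8.93 in the arrays labelled Snail against 8.31 and 8.34 in vector arrays (0.65 ± 0.14, adjusted p = 0.0123), and from H2AC16 (0.52 ± 0.15, adjusted p = 0.0406). In H4, H4C8 was 5.31 and 5.10, against 4.48 and 3.96 (0.99 ± 0.17, adjusted p = 0.00382), and H4C11 7.47 and 7.48, against 6.89 and 7.02 (0.52 ± 0.12, adjusted p = 0.0152). H3C8 was the 1 H3 gene to rise, at 7.83 and 7.70 against 6.81 and 7.35 (0.68 ± 0.17, adjusted p = 0.0242). H2BC15 had the lowest value, -0.47 ± 0.16, which did not pass (adjusted p = 0.0716). Among variants H1-10 fell, with 9.58 and 9.54 against 10.21 and 10.05 (-0.57 ± 0.12, adjusted p = 0.0107). The remaining 9 variants did not pass: H2AZ2 was at -0.33, H1-8 at -0.33, H2AJ at -0.25, H1-7 at -0.08, H2AX at 0.08, H2AZ1 at 0.09, MACROH2A2 at 0.18, MACROH2A1 at 0.29 and H3-3A at 0.45.

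These calls leaned on having both arrays of a group. The count fell to 7 without array 1 labelled Snail or without vector array 1, and to 9 without array 2 labelled Snail or without vector array 2. H1-2, H2AC6, H2BC12, H2BC12L, H2BC6 and H4C8 passed in each of these fits; H2BC21 was lost without vector array 1 (1.59) and without array 1 labelled Snail (1.56), H3C8 fell to 0.41 without vector array 1, and the fall of H1-10 was lost without vector array 1 (-0.49) or either array labelled Snail (-0.59 and -0.55). H2AC16, H2AC25, H2BC4, H2BC5, H2BC9, H2BC11, H3C8 and H4C11 were each lost in at least 1 of the 4, with values from 0.43 to 1.67 outside H3C8, and H2AC16 also without either sphere array (0.52), through the shared estimate of spread.

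**Figure D3:**
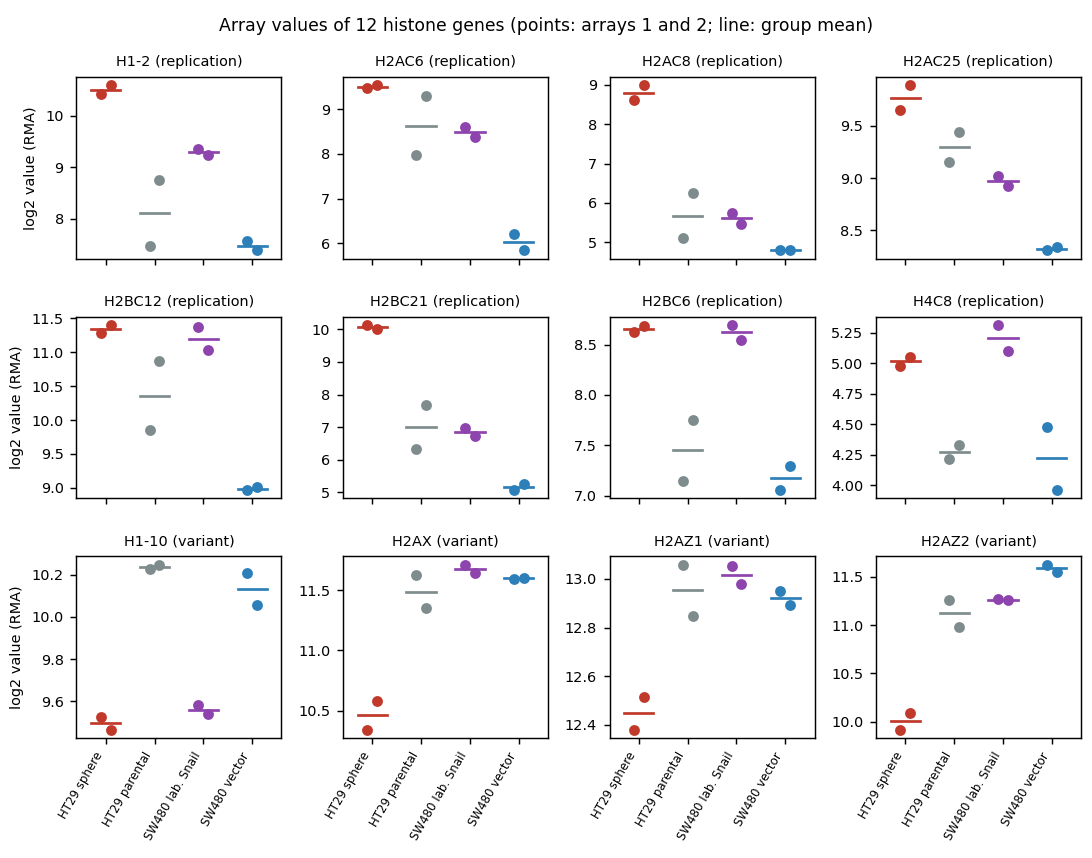
Log2 values of 8 replication histones and 4 variants on every array; points are arrays 1 and 2 of a group and the line is their mean. Scales differ between panels. In the 8 replication panels spheres lie above parental cells and arrays labelled Snail above vector arrays on average, and in the H2AX, H2AZ1 and H2AZ2 panels spheres alone are low.

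The comparisons in the lines share no array, though limma gives them 1 estimate of each gene's spread. Of the 12 replication histones that rose in spheres and the 15 that rose in the arrays labelled Snail, 11 were in both lists, 91.7% of the first and 73.3% of the second: H1-2, H2AC25, H2BC4, H2BC6, H2BC9, H2BC11, H2BC12, H2BC12L, H2BC21, H4C8 and H4C11. The 3 genes outside chromosome 6 were among them. The same overlap over all genes was not counted, so these shares have no background to be read against. Alike genes among the 11 may share probe signal and may not be separate cases. H2AC8 passed in spheres alone, and H2AC6, H2AC16, H2BC5 and H3C8 in SW480 alone. The arrays of the groups did not overlap in any gene called as a rise. The call used the same arrays and nearly fixes this, so it is no added support. Over all genes, called or not, such a gap upward was seen in 32.4% (HT29) and 31.2% (SW480). Counted without a test, 18 of 43 replication histones lay apart upward and 5 downward in spheres, and 25 upward and 6 downward in the arrays labelled Snail; downward gaps were seen in 30.5% (HT29) and 29.2% (SW480) of all genes.

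Whether the changes differed was tested as 1 contrast, the HT29 change minus the SW480 change; the treatments differ as well as the lines. It passed for 8 histone genes, 1 positive and 7 negative, against 27.5% of all genes (10.6% positive and 16.9% negative). For H2AC8 the HT29 change was the larger (difference 2.32 ± 0.42, limma adjusted p = 0.00245). H2AC6 (-1.59 ± 0.47, adjusted p = 0.0287) and H2BC12 (-1.23 ± 0.38, adjusted p = 0.0343) had the larger change in SW480. The remaining 5 differences were negative: H2AX (-1.11 ± 0.20, adjusted p = 0.00231), H2AZ2 (-0.79 ± 0.19), H2AZ1 (-0.60 ± 0.18), MACROH2A1 (-0.65 ± 0.17) and H3C2 (-1.19 ± 0.22). For H2BC21 it was 1.39 ± 0.47, just outside the threshold (adjusted p = 0.0515). The other rises shared by the lines did not pass this test, which does not show them alike: for H1-2 the difference was 0.56 ± 0.44, for H2BC12L -0.70 ± 0.34 and for H2BC6 -0.24 ± 0.27. Only H2AC8, H2AX and H3C2 kept their call whichever array was left out. With the mean over all probe sets of a gene the difference was -0.20 for MACROH2A1, then lost (adjusted p = 0.38), -0.58 for H2AX and -1.44 for H2AZ2; without _x_at and _s_at probe sets it was -1.09 for MACROH2A1 and -2.41 for H2AZ2. Centring each array on its median lost H2AZ1 (-0.46, adjusted p = 0.105) and MACROH2A1 (-0.51, adjusted p = 0.0571), and quantile normalisation lost H2BC12 (-1.14, adjusted p = 0.06). Without parental array 2 the difference was -0.93 for H2AC6 and -0.72 for H2BC12, in a fit that takes no spread from the parental pair. H2AC6 was lost without either sphere array, vector array 2 or either array labelled Snail (-1.71 to -1.41), and H2BC12 without either sphere array or any SW480 array (-1.41 to -1.06). H2AZ1 was lost without parental array 1, either sphere array or any SW480 array (-0.67 to -0.49), H2AZ2 without sphere array 1 (-0.71), and MACROH2A1 without sphere array 1, either vector array or array 1 labelled Snail (-0.66 to -0.57).

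Between the lines themselves, SW480 vector and HT29 parental arrays, 13 of 53 histone genes differed, against 46.1% of all genes (22.6% higher and 23.5% lower in SW480). In SW480 vector cells 5 replication histones were lower and 5 higher. H2AC6 was lowest relative to HT29, at 6.20 and 5.84 in vector arrays and 7.96 and 9.29 in parental arrays (-2.61 ± 0.33, limma adjusted p = 8.99e-05). H2BC21 (-1.83), H2BC12 (-1.37), H2AC25 (-0.97) and H2AC8 (-0.87) were also lower. These 5 all rose in at least 1 treated group, which shares the same arrays as its reference. Those higher in SW480 vector cells were dim: H2BC15 (0.82 ± 0.16), H3C7 (0.65), H1-1 (0.53), H2AC16 (0.49) and H2BC11 (0.36). Among variants, MACROH2A2 was 8.29 and 8.31 in vector arrays and 6.87 and 6.61 in parental arrays (1.56 ± 0.13, adjusted p = 5.43e-06), a clear separation of the lines; it stayed at 8.41 and 8.56 in the arrays labelled Snail and 6.93 and 6.99 in spheres. H2AZ2 was 0.47 ± 0.14 higher and H3-3A 0.61 ± 0.22 lower in SW480 vector cells. With quantile normalisation H3-3A (-0.48, adjusted p = 0.113) and H2BC11 (0.27, adjusted p = 0.123) were lost, as they were with array weights (adjusted p = 0.096 and 0.0758). H2AZ2 turned to -0.11 with the mean over its probe sets. The spread of the parental pair touches these values too. Without parental array 2, H2AC8 stood at -0.30 between the lines and no longer passed, H2BC12 at -0.86 and H2BC21 at -1.15; without parental array 1, H2AC8 was at -1.44 and H2AC16 at 0.31, then lost. H2AC6 in the difference of the comparisons was at -0.93 without parental array 2. H3C7 was 0.40 without vector array 1 and H3-3A -0.38 without vector array 2, both then lost. H3-3A was lost without any 1 of the 4 HT29 arrays too (-0.63 to -0.60), as was H2BC11 without any parental, sphere or vector array (0.33 to 0.38). H1-1 was lost without vector array 2 (0.46), H2AC16 without vector array 2 (0.39), H2AC8 without either vector array (-0.88 and -0.86), and H2AZ2 without parental array 2 (0.33) or either vector array (0.43 and 0.50).

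Many histone genes are too alike for a probe set of their own, and 28 further probe sets were annotated to several histone genes, 20 of them to replication histones. They stayed out of the gene counts above, and some name genes that are counted there, so they are no independent support. Fitted among 54613 probe sets, 8 of the 20 rose and 2 fell in spheres, where 23.2% of all probe sets were called, 9.57% as higher and 13.6% as lower. In the arrays labelled Snail 9 rose and 0 fell, where 11.9% of all probe sets were called, 6.10% as higher and 5.84% as lower; at an unadjusted p under 0.05 limma gave 0 falls there too. The largest sphere rise was in 214455_at, which names H2BC4, H2BC6, H2BC7, H2BC8 and H2BC10: 8.13 and 8.57 in spheres, against 4.02 and 4.73 in parental cells (3.97 ± 0.23, limma adjusted p = 1.29e-06). In 214290_s_at, which names H2AC18 and H2AC19, spheres stood at 12.66 and 12.80, against 8.79 and 10.12 in parental cells (3.28 ± 0.31, adjusted p = 2.9e-05), and the arrays labelled Snail at 10.17 and 10.09, against 8.84 and 8.88 in vector arrays (1.27 ± 0.31, adjusted p = 0.0245).

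Among the shared H3 probe sets, 206110_at, which names 10 H3 genes, was 6.89 and 7.03 in spheres, against 5.12 and 6.14 in parental cells, a rise of 1.33 ± 0.26 (limma adjusted p = 0.00291). 214522_x_at, which names H3C4 and H2AC7, rose by 0.55 ± 0.17 (adjusted p = 0.0415). In each, both sphere arrays lay above both parental arrays. The clearest opposite change was in an H4 probe set. 205967_at names 14 H4 genes and was 8.30 and 8.56 in spheres, against 10.66 and 10.36 in parental cells, a fall of -2.08 ± 0.16 (adjusted p = 7.66e-06). In the arrays labelled Snail it was 9.90 and 10.11, against 9.08 and 9.21 in vector arrays, a rise of 0.86 ± 0.16 (adjusted p = 0.00655). It reads H4 genes as a pool, and which of them it mostly reads was not tested; H4C8 and H4C11, read alone, rose in spheres. Of the 4 other probe sets that name the same 14 genes, 207046_at fell (-0.43, adjusted p = 0.0441) and the rest did not pass. The 8 probe sets shared by H3-3A and H3-3B were flat in spheres, from -0.29 to -0.04, with 0 calls, and in the arrays labelled Snail 1 of 8 rose (211998_at, 1.28 ± 0.15, adjusted p = 0.000526).

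**Figure D4:**
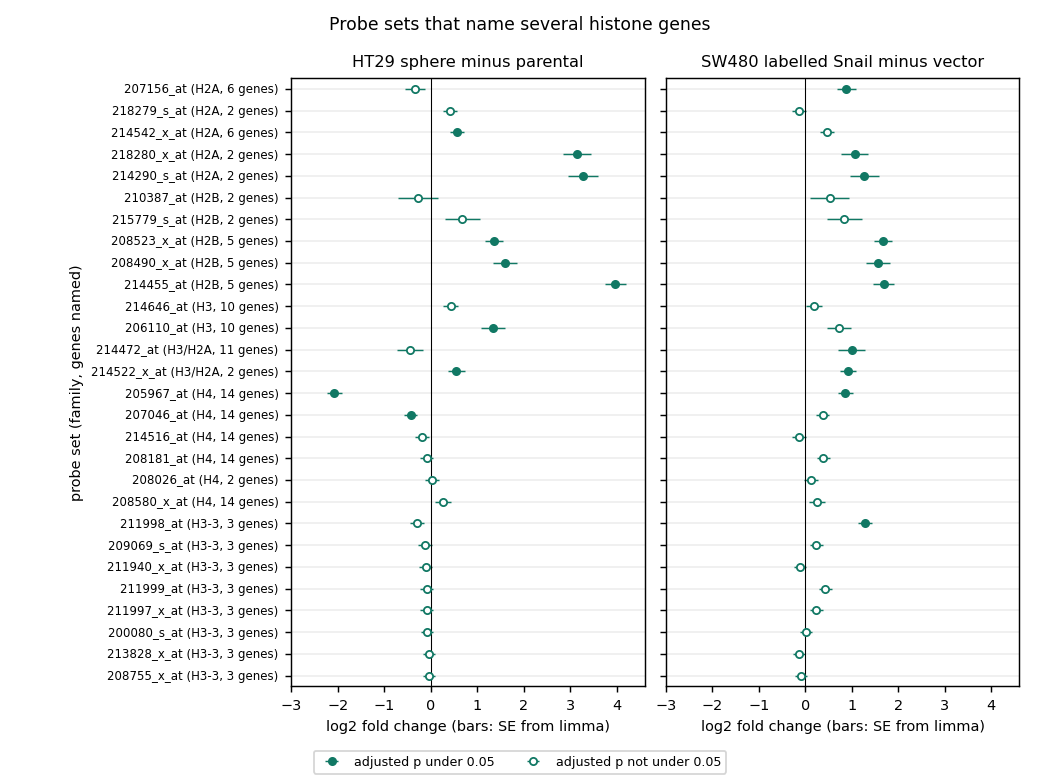
Log2 fold change with SE of the 28 probe sets that name several histone genes, HT29 sphere minus parental (left) and SW480 labelled Snail minus vector (right); the label gives the family and the number of genes named. H2A and H2B probe sets reach 3.14 to 3.97 in spheres, while the H4 probe set 205967_at is at -2.08 in spheres and 0.86 in SW480.

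In 12 members more than 1 probe set named the gene, and for some the choice mattered. All 4 H2AZ2 probe sets and both of H2AZ1 were lower in spheres, as were 3 of 4 for H2AX. In the arrays labelled Snail, however, the H2AZ2 probe set 212205_at rose (0.81 ± 0.19, limma adjusted p = 0.0178), while the brightest was at -0.33. H2AJ's dim probe sets 228213_at and 220936_s_at fell in spheres (-1.53 and -2.10), while its bright ones stood at -0.01 and -0.12. Of 7 MACROH2A1 probe sets in spheres, 214501_s_at fell (-0.48) and 229593_at rose (0.60, adjusted p = 0.0492), and 214500_at rose in the arrays labelled Snail (1.03). H2BC5's second probe set, 222067_x_at, rose in spheres by 1.98 ± 0.33 (adjusted p = 0.00117), unlike the brighter one. Probe sets whose names end in _x_at or _s_at can bind several transcripts, and 5 of the 12 sphere rises and 8 of the 15 in SW480 were read by such probe sets.

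Some rises rest on dim signal. H2BC4, H2BC11 and H4C8 rose in both comparisons with all group means below the array medians, as did H2AC16 in SW480. Of 43 replication histones, 12 had a mean over the 8 arrays above every array median, as had 8 of 10 variants. Of the 12 replication histones, 8 rose in spheres, 11 rose in the arrays labelled Snail and 0 fell in either. Of the other 31, 4 rose in each comparison (12.9%) and 1 fell in spheres. Over all genes, bright or dim, 12.4% (HT29) and 8.91% (SW480) rose, and genes of like brightness were not counted. The mean over the 8 arrays takes in the arrays where a gene was high. H2BC21 averaged 7.27 over them, with 10.07 in spheres and 5.17 in vector arrays. The rises thus help to make this split, and its counts are no added support. The part of signal level in the counts by class and family was not tested. No detection call was used, so a low value says nothing on absence. Head-to-head neighbours shared a change only in part: H2BC4 and H2AC6, whose annotated starts lie 246 bases apart, stood at 0.95 and 0.88 in spheres and at 0.78 and 2.47 in the arrays labelled Snail, and H2AC15 with H2BC15 did not pass in either.

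Genes listed for histone mRNA processing and transcription fell more often than they rose in spheres. Of 26 measured genes on this list, 3 rose and 12 fell in spheres (median -0.36), where 12.4% of all genes rose and 19.0% fell. The list also holds general cell cycle genes, and CCNE1 (-0.96), CCNE2 (-1.66), CDK2 (-0.78) and CDC25A (-1.07) were among the 12 falls. SLBP, NPAT and CASP8AP2 did not pass in either comparison: SLBP averaged 10.61 ± 0.01 in spheres and 10.36 ± 0.14 in parental cells (SD, n = 2 arrays each), a difference of 0.25, and NPAT and CASP8AP2 were at -0.28 and -0.24. CPSF3, the nuclease, fell by 1.76 and LSM11 by 1.14, while ZNF473 rose by 1.13 and LSM10 by 0.62 (limma adjusted p from 1.6e-05 to 0.00735). CSTF2T fell by 1.07 in spheres and rose by 0.65 in the arrays labelled Snail. There, where 8.91% of all genes rose and 7.34% fell, 1 of the 26 rose and 3 fell: SYMPK (-0.72), NCBP1 (-0.71) and NELFB (-0.55).

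Chaperones and replication genes fell broadly in spheres. Of 32 histone chaperone genes 22 fell and 1 rose (median -0.64), against 19.0% and 12.4% of all genes. ASF1B, which hands H3 and H4 to the assembly factors, averaged 7.46 ± 0.15 in spheres and 9.64 ± 0.24 in parental cells (SD, n = 2 arrays each; -2.19 ± 0.15, limma adjusted p = 4.33e-06). OIP5 (-2.30), NASP (-1.65), RBBP4 (-1.64), HJURP (-1.24) and CHAF1B (-0.89) fell as well, as did CENPA, the centromeric H3 (-0.86, adjusted p = 0.00155), a variant outside the 53. Of 36 genes of S phase DNA replication, 35 fell and 0 rose by limma (0 at an unadjusted p under 0.05; median -1.54), including PRIM1 (-2.47), TYMS (-2.63), MCM2 (-2.26) and PCNA (-1.54 ± 0.15, adjusted p = 3.6e-05). The 12 replication histone rises and the 4 variant falls were read on these same sphere arrays; the part of the S phase genes in either was not tested.

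In the arrays labelled Snail 5 of 32 chaperones and 5 of 36 S phase genes passed, near the 16.2% called over all genes. Of the chaperones, 2 rose (CHAF1B 0.65 and ATRX 0.72) and 3 fell, ASF1B by 0.80 and TONSL by 0.68 among them, and of the S phase genes 2 rose (ORC1 1.04 and MCM6 0.76) and 3 fell, TYMS by 0.61 among them. PCNA (0.28), HJURP (-0.28) and CENPA (0.04) did not pass. Set per array around each gene's mean, the S phase list had a median of -1.53 and -1.44 in spheres, against 0.37 and -0.05 in parental cells, and 0.59 and 0.78 in the arrays labelled Snail, against 0.61 and 0.58 in vector arrays. Replication histones stood at 0.06 and 0.02 in spheres, against -0.21 and -0.05 in parental cells, and at 0.16 and 0.16 in the arrays labelled Snail, against -0.16 and -0.05 in vector arrays.

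**Figure D5:**
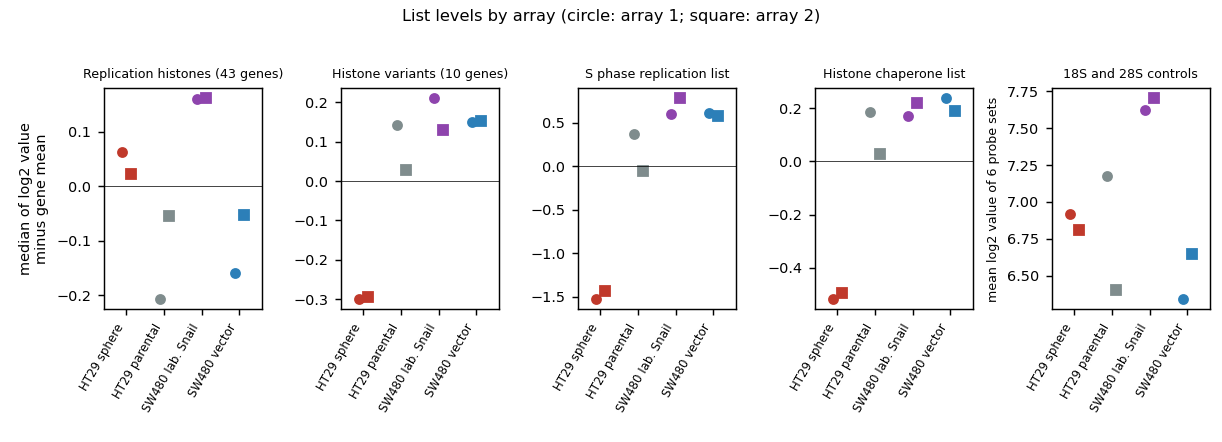
Medians of 4 gene lists by array, as log2 values minus each gene's mean over the 8 arrays, and the mean log2 value of the 6 ribosomal controls (18S and 28S); circles are array 1 and squares array 2 of a group, and scales differ between panels. The S phase, chaperone and variant medians are low in the sphere arrays alone; the ribosomal controls are highest in the arrays labelled Snail.

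RNA quality and RNA without a poly(A) tail were looked at beside these values. The 18S and 28S ribosomal controls averaged 7.62 and 7.70 log2 in the arrays labelled Snail, against 6.34 and 6.65 in vector arrays, so they were higher where the replication histones were. They were 6.92 and 6.81 in spheres, against 7.18 and 6.41 in parental cells. Within the parental pair the ribosomal controls were lower in array 2, where 7 replication histones were higher. The 2 measured RNAs without a tail, RPPH1 and SCARNA2, did not pass in spheres (0.01 and -0.29) or in the arrays labelled Snail (0.27 and 0.60; adjusted p = 0.279 and 0.0738). The 5′ minus 3′ difference of ACTB was -0.72 and -0.95 in spheres, against -0.66 and -0.59 in parental cells, and -0.20 and -0.22 in the arrays labelled Snail, against -0.12 and -0.18 in vector arrays. The part of these differences in the histone values was not tested.

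Marker levels were set beside the labels; the list was made to mark colorectal epithelium, and it checks neither the Snail label nor which line an array holds. Of 12 colorectal epithelial markers, 11 exceeded the array medians in spheres and 12 in parental cells, and 10 in the arrays labelled Snail and 11 in vector cells. Of 18 measured markers of other cell types, 6 did so in spheres and 4 in parental cells, and 2 in the arrays labelled Snail and 3 in vector cells, with list means of 6.13 to 6.32 in spheres against 5.84 to 5.87 in parental cells, and 5.49 to 5.50 in the arrays labelled Snail against 5.37 to 5.42 in vector cells. KRT20 was below the array medians in SW480, with a mean of 4.18 in the arrays labelled Snail and 4.42 in vector arrays. Of the colorectal markers 5 rose and 1 fell in spheres, where 12.4% of all genes rose and 19.0% fell. Among them 4 rose and 2 fell in the arrays labelled Snail, where 8.91% of all genes rose and 7.34% fell. CDH1 (0.76), KRT8 (0.57), KRT19 (0.49) and CLDN7 (1.05) rose there, and VIL1 (-1.06) and CLDN3 (-0.94) fell. CDH1, the gene of E-cadherin, is known as a target that Snail represses. LUM, PECAM1 and CD3E rose in spheres (3.78, 0.57 and 0.39). Their part in the histone values was not tested.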

How the data were processed

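Expression was measured in 8 Affymetrix arrays, 2 for each of HT29 spheres, HT29 parental cells, SW480 cells labelled Snail and SW480 vector cells. The deposited values are on the log2 scale after RMA, per the submitters' processing notes. RMA is a method that corrects background, normalises across arrays and combines the probes of a probe set. The values hold no detection calls or counts, and the number of arrays limits the precision. Of 54675 probe sets, 41091 named 1 gene, 1801 several and 11721 none, and 62 were controls; 41037 matched a RefSeq gene.

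Each gene was read through its brightest probe set. limma 3.58.1 in R 4.3.3 was fitted to all 8 arrays with a mean per group over 19775 genes, with Benjamini-Hochberg adjustment and a threshold of 0.05, and separately over 54613 probe sets. The fit was tested on simulated data. Means are given with the SD and changes with limma's SE; an exact test of 2 against 2 arrays cannot go below p = 0.333. Members and gene lists were chosen with earlier results of these data known. Genes named were every variant, up to 4 replication histones per family and comparison with the lowest adjusted p, the largest changes, and fixed genes of histone supply; others named for their probe sets or their loss on leaving out an array were chosen after their values were seen. Alternatives covered probe set choice, dim genes, normalisation, the fit and each array left out. Protein sequences were not used here.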

Additional observations from a re-analysis of the deposited data

Results flagged for a closer look

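The change in HT29 (sphere minus parental) and the change in SW480 (labelled Snail minus vector) differed in 8 histone genes by limma's test of the difference itself, each with an adjusted p under 0.05; the lines also had different treatments. The difference was 2.32 for H2AC8, -1.59 for H2AC6, -1.23 for H2BC12 and -1.19 for H3C2 among replication histones, and -1.11 for H2AX, -0.79 for H2AZ2, -0.65 for MACROH2A1 and -0.60 for H2AZ1 among variants. With the mean over probe sets MACROH2A1 was at -0.20 and no longer passed, H2AX at -0.58 and H2AZ2 at -1.44; with each array centred on its median, H2AZ1 (-0.46) and MACROH2A1 (-0.51) no longer passed. Over all genes 27.5% passed this test. Groups of 2 arrays were too small to look for single arrays that stand apart.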

How the results depend on the processing

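Replication histones higher in spheres numbered 12, and 7 without _x_at and _s_at probe sets, 6 at 2-fold or more, and 7 to 15 with an array left out. Those lower numbered 1, and 0 without _x_at and _s_at probe sets, with dim genes removed or at 2-fold, 2 after quantile normalisation, and 0 to 1 with an array left out. Variants higher in spheres stayed at 0; those lower numbered 4, and 2 at 2-fold, and 3 to 4 with an array left out. In the arrays labelled Snail, 15 replication histones were higher, and 7 without _x_at and _s_at probe sets, 8 at 2-fold, and 7 to 16 with an array left out; 0 were lower, and 1 with the mean over probe sets or each line fitted alone, 2 with array weights, and 0 to 1 with an array left out. Variants higher there numbered 0, and 2 without _x_at and _s_at probe sets, 1 with an intensity trend, and 0 to 1 with an array left out; those lower numbered 1, and 0 without _x_at and _s_at probe sets or at 2-fold, 2 with the trend, and 0 to 1 with an array left out. Between the lines 13 were called, and 4 at 2-fold and 7 to 17 with an array left out; for the difference 8, and 5 at 2-fold and 3 to 11 with an array left out. H2AZ2 between the lines was 0.47, but -0.11 with the mean over probe sets and -0.9998 without _x_at and _s_at probe sets. The cause was not tested, but those filters leave 33 replication histones and 7 variants, and 15 and 8 with dim genes removed. The array medians differed by -0.12 between spheres and parental cells. Centring each array on its median removed this gap, which moved HT29 changes upward, and gave 17 replication rises and 3 variant falls. The share of all genes called in each setting was not set beside the counts in this section. They show only how the calls move, and are no results about histones. Without 1 of the parental arrays, the fit takes no spread from the parental pair. With the replicate number as a block, 12 and 15 replication rises were called. Between the lines, H3-3A (adjusted p = 0.0521) and H2BC11 (adjusted p = 0.0577) were then lost by limma. Deviations of same-numbered arrays had r from -0.0566 to 0.0605, which cannot exclude a small shared effect. The labels do not say what a replicate number shares, so whether the numbers pair the samples is unknown.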
